A study of Homo sapiens with 4 samples.

Results

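The genes described here are a hand-chosen set of 45 genes of DNA replication and S phase, picked by name. They encode the proteins that license replication origins, activate the replicative helicase, copy DNA at the fork, and supply the nucleotides for it. In the deposited count table, 44 of the 45 were found by gene identifier, and all 44 had enough counts to be tested, among 18252 genes tested in all. The level of the remaining gene, *UHRF1*, was not analysed here. Cells of LX-2, a line established from human hepatic stellate cells, were transfected at 20 nM with a mimic of the human microRNA miR-6133-5p or with a negative control mimic named miControl. All cells of both groups received 5 ng/mL of rhTGF-β1, a fibrogenic cytokine, 24 h after transfection, and RNA was taken 24 h after that. The series compared 2 miR-6133-5p libraries with 2 miControl libraries, and no library without rhTGF-β1 was analysed here. Nothing in the labels says that the 2 libraries of a group came from separate cultures, so p-values measure the spread between these libraries, which may be technical.

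A cell makes origins competent for replication before S phase, when the origin recognition complex (ORC), CDC6 and CDT1 load rings of the MCM2-7 helicase onto DNA. At the start of S phase the helicase is switched on by joining CDC45 and the GINS complex of GINS1 to GINS4. DNA polymerase α-primase then lays primers, the clamp loader RFC places the ring PCNA, and polymerases δ and ε extend the strands, while ribonucleotide reductase and thymidylate synthase keep up the supply of DNA building blocks. Many of these genes are known targets of the E2F transcription factors, which are held in check by the retinoblastoma protein family until cells commit to S phase. Quiescent hepatic stellate cells divide little, and proliferation is a known feature of their activation.

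Across the whole series, library totals ran from 51862006 to 93811213 counts, and 3 counts corresponded to at most 0.0610 CPM (the usual count unit relative to the library total, here scaled by TMM, the trimmed mean of M values). Counts were 1.68 to 1.70 times the uniquely mapped read pairs, and how mates and overlapping reads were counted is not given in the sources used here. Between replicates, log2 CPM correlated with r = 0.991 (Pearson) in both groups, taken over genes, which are not independent of each other. The spread between replicates was not alike in the 2 groups. The chi-square per degree of freedom on counts, which also grows with depth, was 13.8 with miControl and 52.1 with miR-6133-5p. Of 10 stellate cell marker genes 8 were abundant enough to be tested, whereas *LRAT* and *DES*, a retinoid enzyme and an intermediate filament of stellate cells, were at 0.0706 CPM or lower in every library. The summed level of the stellate markers was 9120 and 8550 CPM with miControl and 6354 and 5731 CPM with miR-6133-5p. Most of this difference lay in *COL1A1* (group means of 2917 and 1064 CPM) and *SPARC* (3639 and 2751 CPM). Of the 8 tested markers 5 passed as lower at an adjusted p below 0.01 (edgeR), 62.5%, against 10.9% of all genes tested. The other 3 did not pass, with log2 fold changes of 0.42 for *TIMP1*, 0.04 for *PDGFRB* and -0.02 for *VIM*. Markers of hepatocytes summed to 2.01 and 2.52 CPM with miControl and to 2.85 and 2.34 CPM with miR-6133-5p. Those of endothelial cells summed to 2.99 and 2.66 against 2.46 and 2.60 CPM, those of leukocytes to 1.79 and 1.16 against 2.05 and 2.27 CPM, and those of epithelial cells to between 0.0814 and 0.242 CPM. Abundant enough to be tested were 1 of 5 hepatocyte, 2 of 3 endothelial, 1 of 4 leukocyte and 0 of 3 epithelial markers, and the endothelial marker *PECAM1* was not analysed here. Those tested were *SERPINA1* at 1.97 to 2.78 CPM, *KDR* at 1.73 to 2.44 CPM, *VWF* at 0.22 to 0.767 CPM and *CD14* at 0.955 to 1.97 CPM. The matched markers of these cell types that were not tested were at 0.232 CPM (*PTPRC*) or lower in every library. Of them, *ALB*, *TTR*, *CD3E* and *EPCAM* were at or near 0 throughout. *KRT19* was at 0.0407 and 0.0734 CPM with miControl and at 0.153 and 0.182 CPM with miR-6133-5p. The part of the lower summed level of the stellate markers in the results was not tested.

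The E2F factors bind a short motif near the start of their target genes, and the stretches around the start of 4 members are shown. *TYMS* had the largest rise of all members, *GINS1* had the largest fall, and *GINS2* and *GINS3* encode partners of GINS1 that did not pass the test. Each stretch covers 100 bases before to 30 bases after the start in RefSeq (GRCh38.p14), in the direction of the gene. They lie at chr18:657553-657682 on the plus strand for *TYMS*, chr20:25407573-25407702 on the plus strand for *GINS1*, chr16:85688925-85689054 on the minus strand for *GINS2*, and chr16:58392371-58392500 on the plus strand for *GINS3*. Capitals mark letters that match TTTCCCGC, TTTGGCGC, TTTGCCGC or TTTCGCGC on either strand, the E2F letters searched here.
TYMS: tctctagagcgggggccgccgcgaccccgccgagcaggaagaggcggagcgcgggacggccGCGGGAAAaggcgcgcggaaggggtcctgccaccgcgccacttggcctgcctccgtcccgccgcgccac
GINS1: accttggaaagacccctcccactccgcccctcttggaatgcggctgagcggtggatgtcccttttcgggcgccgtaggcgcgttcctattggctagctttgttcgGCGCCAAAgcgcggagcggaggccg
GINS2: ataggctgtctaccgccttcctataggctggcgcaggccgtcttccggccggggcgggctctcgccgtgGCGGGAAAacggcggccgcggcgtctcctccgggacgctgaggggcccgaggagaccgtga
GINS3: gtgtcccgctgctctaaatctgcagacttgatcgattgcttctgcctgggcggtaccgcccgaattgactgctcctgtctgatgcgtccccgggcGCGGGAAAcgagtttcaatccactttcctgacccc

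The match began 39 bases before the start in *TYMS*, 31 bases before it in *GINS2*, 5 bases before it in *GINS3* and 5 bases after it in *GINS1*. All 4 of these hand-picked stretches therefore held the letters, including those of the member that rose most and the member that fell most. RefSeq windows of 300 bases, from 250 before to 50 after a start, were at hand for 41 of the 45 members, *UHRF1* included. At least 1 match to the E2F letters was present in 21 of their 53 windows, 39.6%, against 4.61% of the 17176 windows of tested genes and 3.31% of all 35116 windows. Counted by gene, 20 of 41 members, 48.8%, held a match in some window, against 6.26% of the tested genes. *RRM2* and *PRIM2*, the members with the next largest rises after *TYMS*, held none in any of their windows. CCAAT was in 58.5% of the members' windows against 34.4% of those of tested genes. The GC box letters GGGCGG were in 73.6% against 63.8%, and the letters TTTGAA or TTTCGAA, known as the CHR element of late cell cycle genes, in 1.89% against 11.5%. All motifs were searched on both strands, and none of them contains another, although neighbouring matches may share letters. A match is a run of letters and not a measured binding site.

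The microRNA itself comes from the gene *MIR6133*, whose RefSeq hairpin at chr7:133290881-133290988 on the plus strand (GRCh38.p14) is shown because it is the source of the transfected sequence. No mature sequence of miR-6133-5p was used here, so no seed is marked.
MIR6133 hairpin: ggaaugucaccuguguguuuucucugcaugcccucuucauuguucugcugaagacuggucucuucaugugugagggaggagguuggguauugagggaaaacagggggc

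Of the 44 members, 10 were higher and 2 were lower in the miR-6133-5p libraries at an adjusted p below 0.01 by the quasi-likelihood F test of edgeR, adjusted over all genes tested, and the words rose and fell are used for genes past this test only. They make up 22.7% and 4.55% of the members, against 7.96% of all genes tested that were higher and 10.9% that were lower. Among the 9174 genes at least as abundant as the least abundant member, 11.9% were higher and 17.4% were lower. With the study's added limit of 0.8 on the log2 fold change, 3 members were called higher, *TYMS*, *RRM2* and *PRIM2*, and 1 was called lower, *GINS1*. These are 6.82% and 2.27% of the members, against 2.9% and 5.54% of all genes tested. The other 32 members did not pass the test. With either miControl library left out, fewer members passed in each direction, and fewer of all genes tested did so as well. With either miR-6133-5p library left out, more members passed as higher, as did more of all genes tested. The median log2 fold change of the members ran from 0.18 to 0.25 in these fits. When glmTreat tested the fold against 0.8 itself, 1 member was called higher and 1 lower, where 0.438% and 1.79% of all genes tested were. At an adjusted p of 0.05, 16 members were higher and 3 lower, where 14.1% and 16.1% of all genes tested were.

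Fold changes of the members were positive in 33 genes and negative in 11, with a median of 0.24 on the log2 scale, whereas the median of all genes tested was 0.03. Without the 4 called members, the median was 0.22. With libraries scaled by their totals alone in place of TMM factors, the median was 0.40 for the members and 0.19 for all genes tested, and the share of higher genes among all that passed moved from 42.3% to 66.6%. Under that scaling 20 members passed as higher, where 15.5% of all genes tested did so, and 5 members that were negative with TMM factors became positive (*MCM4*, *MCM5*, *CDC45*, *GINS3* and *POLD3*). Both miR-6133-5p libraries lay above both miControl libraries in 27 members, 61.4%, against 33.2% of all genes tested, and below both in 9 members, 20.5%, against 31.3%. In the remaining 8 members the groups overlapped. Summed over the 44 members, the level was 3646 and 3562 CPM with miControl and 4221 and 4087 CPM with miR-6133-5p, a ratio of means of 1.15. Leaving out *TYMS* and *RRM2*, the ratio was 1.1. Among the miR-6133-5p libraries, replicate 1 lay above replicate 2 in 29 of the 44 members, 65.9%, against 52.0% of all genes tested, and the part of this order in the results was not tested. In RNA of whole cultures, a different number of cells in S phase and a different amount of RNA per cell cannot be told apart.

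**Figure D1:**
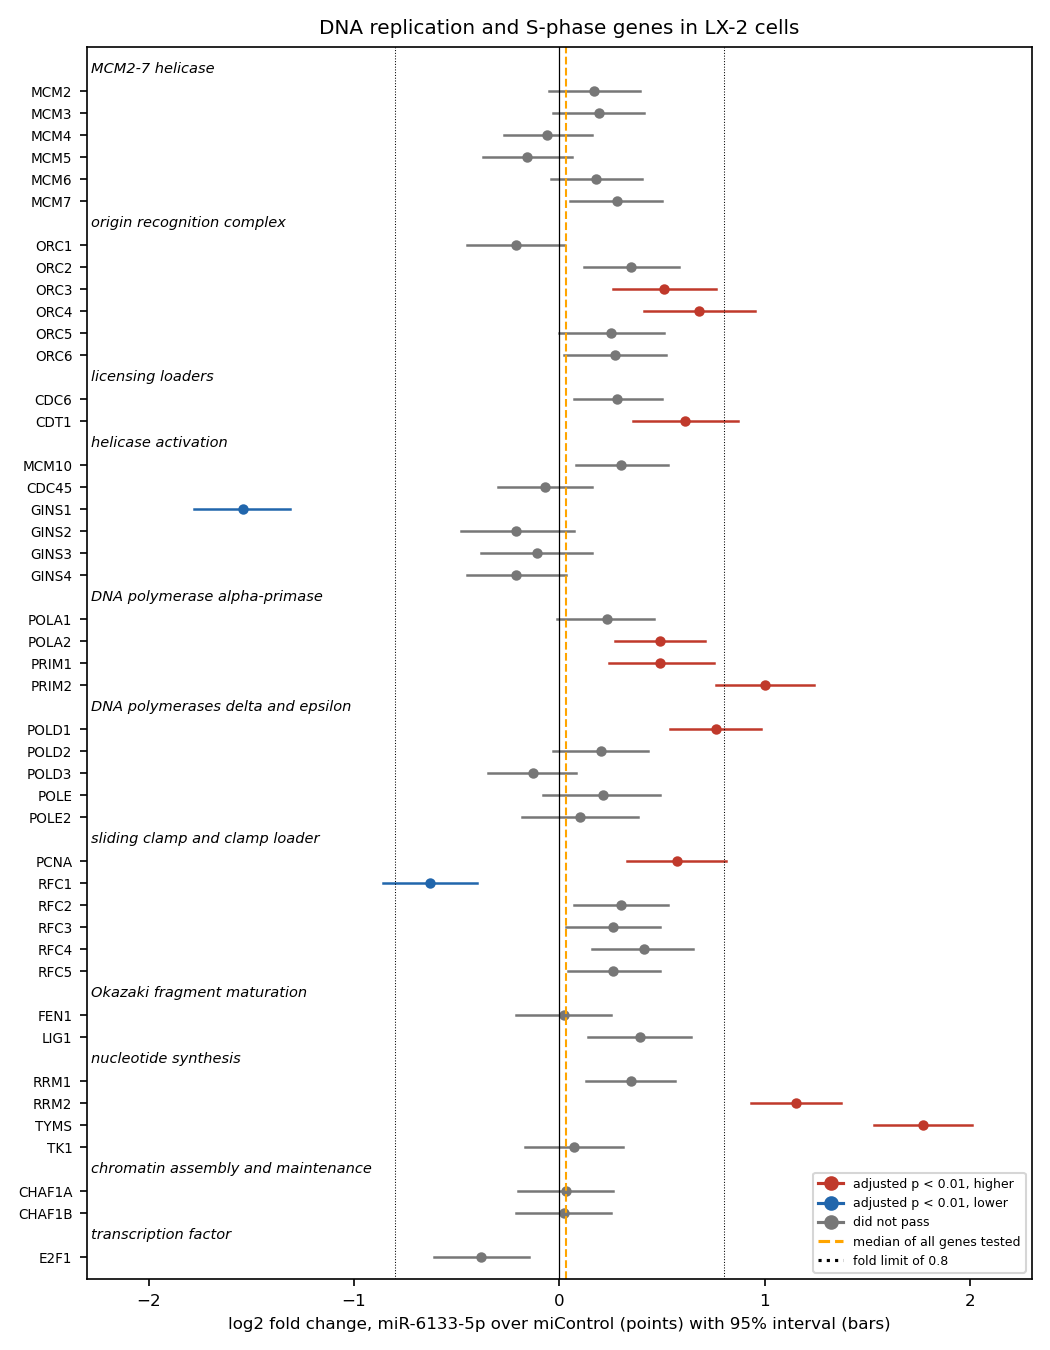
Log2 fold change (miR-6133-5p over miControl) of each of the 44 members, grouped by role, with bars for the 95% interval from edgeR. TYMS at 1.77 and GINS1 at -1.54 lie farthest from 0, and most other members lie slightly above 0.

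**Figure D2:**
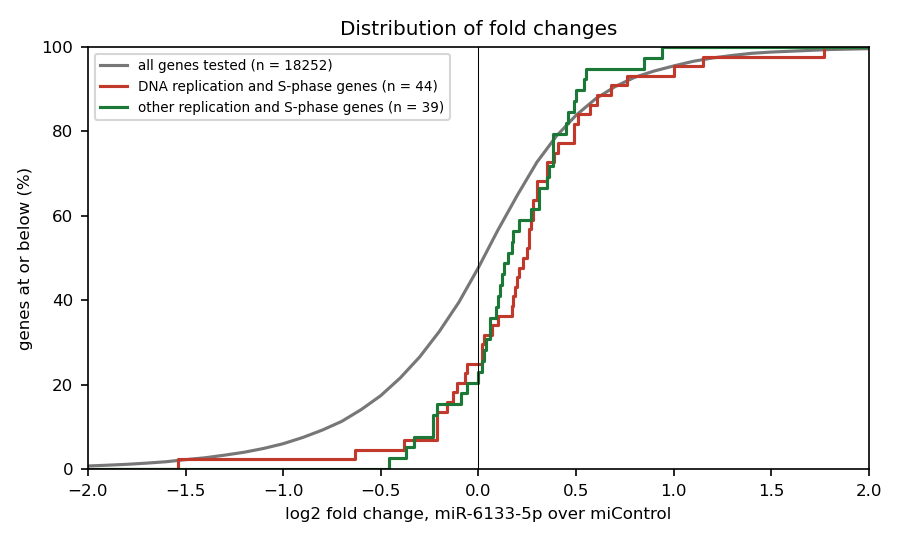
Cumulative share of genes (percent, vertical axis) at or below each log2 fold change (horizontal axis), for the 44 members, 39 other replication and S-phase genes and all 18252 genes tested. The curves of both replication lists lie below that of all genes around 0 and meet it near 0.8, as 25.0% of the members and 47.7% of all genes lay at or below 0.

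Of the 4 genes of nucleotide supply, 2 rose, and *TYMS* had the largest change of all members. *TYMS* (ENSG00000176890, chr18:657653-673578 of GRCh37, plus strand) encodes thymidylate synthase, which makes the thymidine nucleotide of DNA. Its level was 24.2 and 24.5 CPM in the miControl libraries and 89.2 and 76.8 CPM in the miR-6133-5p libraries. It rose 3.4-fold, or by 1.77 on the log2 scale (standard error, SE, 0.112, edgeR adjusted p = 2.03e-07). *RRM2* (ENSG00000171848, chr2:10260825-10351851, plus strand) encodes the small subunit of ribonucleotide reductase, whose supply is known to be limited to S phase. It went from 126 and 124 CPM to 288 and 268 CPM and rose by 1.15 (SE 0.103, edgeR adjusted p = 3.23e-06). In both genes the 2 replicates of a group lay close together and the groups were far apart.

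The other nucleotide genes, *RRM1* and *TK1*, did not pass. *RRM1*, the large subunit of ribonucleotide reductase, was at 152 and 151 CPM with miControl and at 195 and 190 CPM with miR-6133-5p, with a log2 fold change of 0.35 that did not pass (adjusted p = 0.0188, edgeR). It passed with DESeq2 (0.34, adjusted p = 0.00775) and without miR-6133-5p replicate 2 (0.35, adjusted p = 0.00302, edgeR). Per kb of transcript, the level of *RRM2* was 0.799 and 0.793 times that of *RRM1* with miControl and 1.42 and 1.36 times with miR-6133-5p. The order of the pair turned with canonical transcripts of 3258 bases for *RRM2* and 3142 for *RRM1*. All exon bases together number 9153 and 4233, so the order between these genes depends on the length chosen. *TK1*, the thymidine kinase that salvages thymidine, was at 186 and 159 CPM against 189 and 173 CPM, a log2 fold change of 0.07 with a 95% interval from -0.17 to 0.31. The level of *TYMS* per kb was 0.116 and 0.137 times that of *TK1* with miControl and 0.42 and 0.394 times with miR-6133-5p. *TYMS* thus stayed below *TK1* per kb in all 4 libraries, by less with miR-6133-5p.

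Of the exon bases of *TYMS*, 47.9% lie in exons of genes on the opposite strand, *ENOSF1* and *TYMSOS*. *ENOSF1* was at 15.5, 14.6, 19.7 and 18.8 CPM in the same library order, and *TYMSOS* was at 0.336 CPM or lower. The library kit marks strand, but no strand setting for the counting was given in the sources used here, so the share of overlapping reads in these counts is unknown. Named pseudogenes exist for *TYMS* (2) and *RRM2* (3), and reads shared with such copies are uncertain.

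Helicase activation held the member that fell most. *GINS1* (ENSG00000101003, chr20:25371644-25433336 of GRCh37, plus strand) was at 78.6 and 78.9 CPM with miControl and at 28.9 and 25.3 CPM with miR-6133-5p. It fell to 0.344 of its control level, -1.54 on the log2 scale (SE 0.109, edgeR adjusted p = 4.51e-07), and it passed with each library left out in turn. Its 3 partners in the complex did not pass. *GINS2* was at 16.0 and 16.3 against 15.4 and 12.6 CPM, a log2 fold change of -0.21 with an interval from -0.48 to 0.07. *GINS3* was at 27.9 and 26.9 against 28.2 and 22.5 CPM (-0.11, interval from -0.38 to 0.16), and the groups overlapped. *GINS4* was at 27.8 and 30.2 against 23.8 and 26.3 CPM (-0.21, interval from -0.45 to 0.03).

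The 4 GINS proteins are known to form a complex with 1 copy of each. Per kb of transcript, *GINS1* was the highest of the 4 with miControl, at 23.7 and 23.8 CPM per kb, and lay below *GINS3* with miR-6133-5p, where it was at 8.72 and 7.63 against 12.8 and 10.2 CPM per kb. The level of *GINS1* per kb was 3.9 and 3.85 times that of *GINS2* in the miControl libraries and 1.49 and 1.59 times in the miR-6133-5p libraries. The ratio to *GINS2* was thus smaller in both miR-6133-5p libraries, while *GINS1* still lay above *GINS2* and *GINS4* with these lengths. The rank of *GINS1* with miR-6133-5p depends on the length chosen. Its canonical transcript has 3311 bases, whereas its exon bases number 8017, against 3219 in *GINS2* and 5447 in *GINS4*. Of the other helicase activators, *CDC45*, which rides with the helicase, was at 40.7 and 36.7 against 37.6 and 36.3 CPM (-0.07, interval from -0.30 to 0.16). *MCM10*, a further activator, was at 35.1 and 38.5 against 44.6 and 46.2 CPM (0.30, adjusted p = 0.044, edgeR). With TMM factors 5 of the 6 genes in this role were negative, but *CDC45* and *GINS3* turned positive with library totals alone (0.10 and 0.05), and *GINS3* also without miR-6133-5p replicate 2 (0.03).

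**Figure D3:**
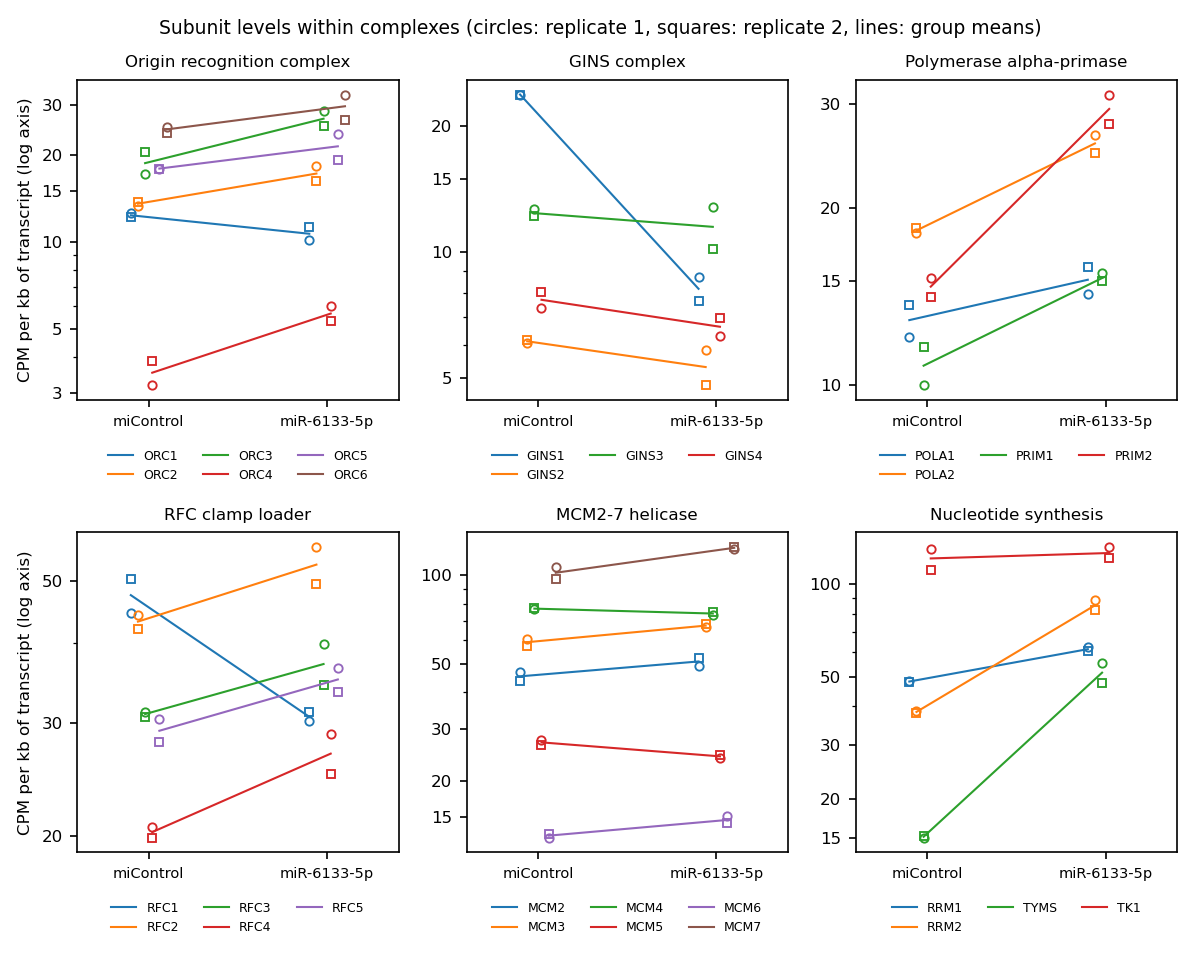
Levels in CPM per kb of transcript (log axis) of the subunits of 5 complexes and of the nucleotide synthesis genes, with circles for replicate 1, squares for replicate 2 and lines between the group means. GINS1 and RFC1 drop from the top of their complexes while their partners stay nearly level or lie higher, and PRIM2, RRM2 and TYMS lie higher with miR-6133-5p. The order of genes within a panel depends on the canonical transcript lengths used.

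Of the origin recognition and loading genes, 2 of 6 and 1 of 2 rose. *ORC4*, a subunit of the origin recognition complex, was at 20.9 and 25.3 CPM with miControl and at 39.3 and 34.9 CPM with miR-6133-5p, and rose by 0.68 on the log2 scale (SE 0.123, edgeR adjusted p = 0.001). *ORC3* was at 43.0 and 51.1 against 71.2 and 62.9 CPM and rose by 0.51 (SE 0.116, edgeR adjusted p = 0.00476). In both genes miControl replicate 2 lay above replicate 1, but the groups did not overlap. Neither rise passed in every fit with a library left out, since *ORC4* had an adjusted p of 0.0509 without miControl replicate 1, and *ORC3* had 0.142 without miControl replicate 1 and 0.0195 without miControl replicate 2 (edgeR).

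The other ORC genes did not pass. *ORC1*, the subunit known to come and go with the cell cycle, was the only ORC gene on the negative side, at 39.5 and 38.2 against 31.7 and 35.2 CPM (-0.21, interval from -0.45 to 0.02). *ORC2*, *ORC5* and *ORC6* had log2 fold changes of 0.35, 0.25 and 0.27, and they passed when miR-6133-5p replicate 2 was left out (0.42, 0.38 and 0.39). Per kb, *ORC4* was the lowest ORC gene in both groups, at 0.252 and 0.316 times the level of *ORC1* with miControl and 0.59 and 0.472 times with miR-6133-5p. Of the loaders, *CDT1*, which brings MCM2-7 to the origin, was at 27.4 and 24.3 against 42.6 and 36.5 CPM and rose by 0.61 (SE 0.118, edgeR adjusted p = 0.00153). Without miControl replicate 1 or 2 its adjusted p was 0.0215 and 0.0562 (edgeR). *CDC6*, the ATPase that works with CDT1, was at 86.0 and 88.9 against 109 and 104 CPM (0.28, adjusted p = 0.0479, edgeR) and did not pass.

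None of the 6 genes of the MCM2-7 helicase passed at an adjusted p of 0.01 (edgeR), while *MCM7* was the only one of them with an unadjusted p below 0.05 (0.0189). DESeq2 passed none of them either. Their log2 fold changes ran from -0.16 for *MCM5* to 0.28 for *MCM7*, with a median of 0.17. *MCM7* was at 265 and 239 CPM with miControl and at 303 and 308 CPM with miR-6133-5p. *MCM4*, the least changed, was at 313 and 313 against 297 and 305 CPM (-0.06, interval from -0.27 to 0.16). *MCM4* and *MCM5* turned to 0.11 and 0.01 with library totals alone. Under that scaling *MCM7* passed (0.44, adjusted p = 0.00506, edgeR), where 15.5% of all genes tested passed as higher. The groups did not overlap in any of the 6 genes, with *MCM2*, *MCM3*, *MCM6* and *MCM7* higher and *MCM4* and *MCM5* lower, but 33.2% and 31.3% of all genes tested were likewise apart. The 6 genes together were at 1068 and 1019 CPM with miControl and 1113 and 1140 CPM with miR-6133-5p. *MCM2* shares 23.6% of its exon bases with a gene on the opposite strand.

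The genes of DNA polymerase α-primase, which starts every new strand with a short primer, were all on the positive side, and 3 of the 4 rose. *PRIM2* (ENSG00000146143, chr6:57179603-57513376 of GRCh37, plus strand), the large primase subunit, was at 25.6 and 23.8 CPM with miControl and at 52.4 and 46.7 CPM with miR-6133-5p. On the log2 scale it rose by 1.0 (SE 0.111, edgeR adjusted p = 1.82e-05). *PRIM1*, the catalytic primase subunit, was at 14.3 and 16.5 against 22 and 21.4 CPM and rose by 0.49 (SE 0.119, edgeR adjusted p = 0.00701). *POLA2*, the accessory subunit of the polymerase, was at 64.0 and 65.7 against 94.1 and 88.0 CPM and rose by 0.49 (SE 0.101, edgeR adjusted p = 0.0025). *POLA1*, the catalytic subunit, was at 66.6 and 75.2 against 78.5 and 87.3 CPM, a log2 fold change of 0.23 with an interval from -0.01 to 0.46.

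Both primase subunits thus lay higher in both miR-6133-5p libraries, and *PRIM2* by more. Per kb, *PRIM2* was at 1.51 and 1.22 times the level of *PRIM1* with miControl and at 2.01 and 1.85 times with miR-6133-5p. *PRIM1* had an adjusted p of 0.149 without miControl replicate 1 and 0.0324 without miControl replicate 2, and *POLA2* had 0.0749 and 0.0529 (edgeR), whereas *PRIM2* passed in each fit. In the GRCh37 annotation used here, 18.3% of the exon bases of *PRIM2* lie in exons of other genes on the same strand, one of them the pseudogene *PRIM2BP*, as do 16.8% of those of *POLA2* and 15.1% of those of *PRIM1* (with *NACA*). Such reads cannot be assigned by strand, and the fold changes of these 3 genes are uncertain to that extent. *PRIM2BP* was not among the genes counted by the authors. *NACA* was counted, at 320 and 312 CPM with miControl and at 386 and 316 CPM with miR-6133-5p, far above *PRIM1*. Among the 36 members with under 10% of shared exon bases, 6 rose and 2 fell, 16.7% and 5.56%, against 7.96% and 10.9% of all genes tested. In each direction 1 of them was called, 2.78%, against 2.9% higher and 5.54% lower of all genes tested.

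**Figure D4:**
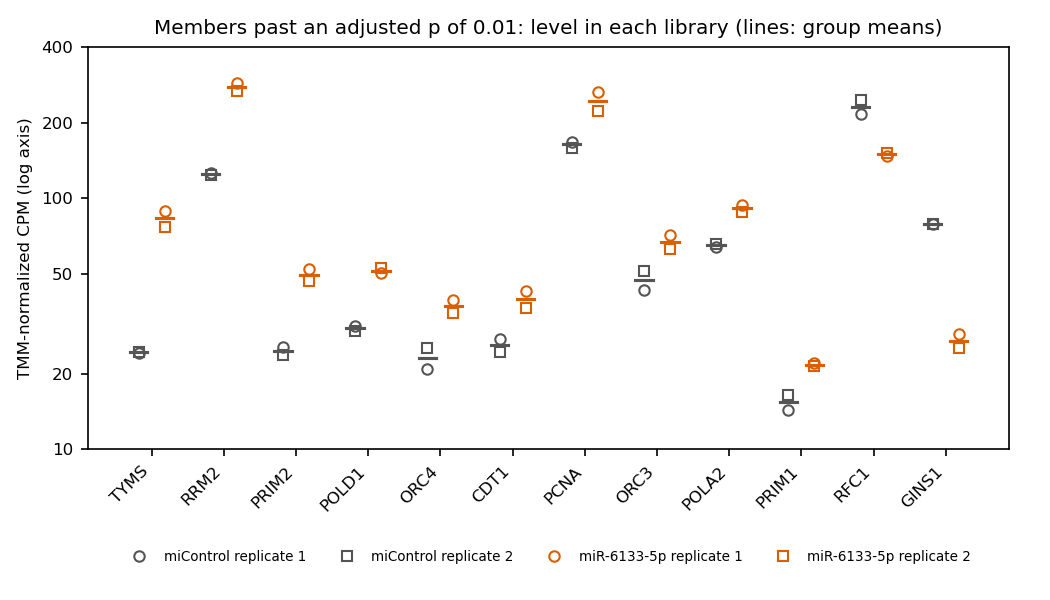
Level (TMM-normalized CPM, log axis) of the 12 members past an adjusted p of 0.01 in each library, with circles for replicate 1, squares for replicate 2 and short lines for group means. In every gene shown the 2 groups do not overlap, and the gaps between them range from narrow in ORC3 and PRIM1 to wide in TYMS and GINS1.

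At the fork itself, 1 polymerase subunit rose. *POLD1*, the catalytic subunit of polymerase δ, was at 31.1 and 29.7 CPM with miControl and at 50.4 and 52.6 CPM with miR-6133-5p. It rose by 0.76 on the log2 scale (SE 0.103, edgeR adjusted p = 0.000109), just short of the limit of 0.8. Its accessory subunits *POLD2* and *POLD3* had log2 fold changes of 0.20 (interval from -0.03 to 0.43) and -0.13 (interval from -0.35 to 0.08), and *POLD3* turned to 0.03 with library totals alone. *POLE*, the catalytic subunit of polymerase ε, was at 148 and 139 against 141 and 190 CPM. One miR-6133-5p library lay between the miControl libraries and the other above both, and the log2 fold change of 0.21 became 0.39 without miR-6133-5p replicate 1, where it passed (adjusted p = 0.0019, edgeR), and -0.04 without replicate 2. *POLE2* was the least abundant member, at 9.32 and 9.77 against 10.7 and 9.71 CPM (0.10, interval from -0.18 to 0.38).

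The sliding clamp and its loader moved in opposite directions in 1 gene each. *PCNA*, the ring that holds polymerases on DNA, was at 168 and 159 CPM with miControl and at 264 and 222 CPM with miR-6133-5p, and rose by 0.57 on the log2 scale (SE 0.113, edgeR adjusted p = 0.0019). *RFC1* (ENSG00000035928, chr4:39289076-39367995 of GRCh37, minus strand), the large subunit of the loader, was at 217 and 245 against 147 and 152 CPM, and fell by 0.63 on the log2 scale (SE 0.106, edgeR adjusted p = 0.000597). The 4 small loader subunits did not pass and were all positive, from 0.26 for *RFC3* and *RFC5* over 0.30 for *RFC2* to 0.41 for *RFC4* (adjusted p = 0.0148, edgeR).

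*RFC3* was at 72.0 and 70.8 against 91.8 and 79.3 CPM, and *RFC5* at 64.2 and 58.9 against 77.1 and 70.5 CPM, each without overlap. Per kb, the level of *RFC1* was 1.01 and 1.2 times that of *RFC2* with miControl and 0.535 and 0.629 times with miR-6133-5p. With the canonical transcript lengths, the large subunit went from the level of the highest small subunit to about that of the lowest, *RFC4*. With miR-6133-5p it was at 1.05 and 1.25 times the level of *RFC4* per kb, and this order depends on the lengths used. Without miControl replicate 1 or 2 the adjusted p of *RFC1* was 0.0118 and 0.0244, and that of *PCNA* was 0.047 and 0.0687 (edgeR). *RFC2*, *RFC3* and *RFC4* passed without miR-6133-5p replicate 2 (0.37, 0.35 and 0.49). *PCNA* has 3 named pseudogenes, and 10.6% of the exon bases of *RFC5* lie in exons on the opposite strand.

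Genes that finish Okazaki fragments and assemble chromatin did not pass. *LIG1*, the ligase that seals the fragments, was at 39.2 and 32.5 against 45.1 and 48.8 CPM (0.39, adjusted p = 0.0221, edgeR), and it passed without miR-6133-5p replicate 1 (0.43, adjusted p = 0.00583, edgeR). *FEN1*, the nuclease that trims their ends, was at 170 and 160 against 178 and 158 CPM (0.02, interval from -0.21 to 0.25). *CHAF1A* and *CHAF1B*, subunits of the factor that places histones behind the fork, had log2 fold changes of 0.03 (interval from -0.20 to 0.26) and 0.02 (interval from -0.21 to 0.25). *CHAF1A* was at 47.1 and 44.4 against 44 and 49.6 CPM, and *CHAF1B* at 26.6 and 26.7 against 27.5 and 26.6 CPM. For *FEN1*, *TK1*, *CHAF1A* and *CHAF1B* the sign changed with 1 library left out, and the groups overlapped.

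*E2F1*, the member that encodes a transcription factor, was lower in both miR-6133-5p libraries, at 59.3 and 54.8 CPM, than in both miControl libraries, at 78.4 and 70.3 CPM. Its log2 fold change of -0.38 (SE 0.106) did not pass (adjusted p = 0.0151, edgeR). With DESeq2 it passed (-0.39, adjusted p = 0.00618), as it did without miR-6133-5p replicate 1 (-0.46, adjusted p = 0.00185, edgeR). Of the members that carried the E2F letters, 5 rose (*TYMS*, *CDT1*, *ORC3*, *PCNA* and *POLA2*), *GINS1* fell and 13 did not pass, and the level of *UHRF1*, which also carried them, was not analysed here. Members with the letters were 5 of the 10 that rose, 1 of the 2 that fell and 13 of the 28 with a window that did not pass.

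Entry into S phase is governed by E2F factors, cyclins and the kinases and inhibitors that act with them. Of 21 such regulators, 4 passed as higher and 4 as lower (edgeR, adjusted p below 0.01), 19.0% each way, against 7.96% and 10.9% of all genes tested, with a median log2 fold change of -0.02. Fewer regulators passed as higher with either miControl library left out, and fewer as lower without miControl replicate 1. More passed as lower with either miR-6133-5p library left out. The numbers over all genes tested moved in the same directions. *E2F2*, an activator, was at 7.83 and 7.18 CPM with miControl and at 13.9 and 14.9 CPM with miR-6133-5p and rose by 0.94 (SE 0.128). *E2F5*, a repressor at a low level, was at 1.79 and 1.96 against 3.52 and 3.19 CPM and rose by 0.83 (SE 0.206), but its adjusted p was 0.0915 and 0.0487 without miControl replicate 1 or 2, 0.0127 without miR-6133-5p replicate 1 and 0.0106 with counts thinned to the smallest library (edgeR). *E2F3*, also an activator, rose by 0.42, as did *CDC25A*, a phosphatase that activates CDK2, yet neither passed without miControl replicate 1 (adjusted p = 0.0882 and 0.121, edgeR) or replicate 2 (0.131 and 0.0842).

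*SKP2*, which marks the inhibitor p27 for destruction, was at 200 and 203 CPM with miControl and at 115 and 113 CPM with miR-6133-5p, and fell by 0.82 on the log2 scale (SE 0.101). *CDKN1A*, the gene of the CDK inhibitor p21, was at 19.9 and 18.9 against 10.9 and 11.4 CPM and fell by 0.80 (SE 0.117). The repressors *E2F4* and *E2F7* fell by 0.68 and 0.56. With a library left out, the test was no longer passed by *CDKN1A* and *E2F4* (miControl replicate 1, adjusted p = 0.0123 and 0.0272, edgeR) or by *E2F7* (miControl replicate 1 or 2, adjusted p = 0.0307 and 0.0295, edgeR). Among those that did not pass, *CCND1*, the cyclin D1 gene, was at 1554 and 1540 against 1218 and 1254 CPM (-0.32, adjusted p = 0.0238, edgeR), and it passed with DESeq2 (-0.34, adjusted p = 0.00556) and with either miR-6133-5p replicate left out.

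The cyclins of the S phase kinases did not pass. *CCNE1* and *CCNE2*, the E cyclins, had log2 fold changes of 0.07 and 0.45, and *CCNA2*, the A cyclin, of 0.13. *CCNE2* was at 5.67 and 8.28 against 9.39 and 9.73 CPM. *CDKN1B*, the p27 gene, was at 99.2 and 106 against 87.1 and 80.4 CPM (-0.30, interval from -0.52 to -0.07). *E2F6* and *E2F8* had log2 fold changes of 0.33 and 0.23. *E2F6* passed with library totals alone (0.49), *CDKN1B* without miR-6133-5p replicate 1 (-0.37), and the sign of *CCNE1* changed without miR-6133-5p replicate 1 (-0.10).

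**Figure D5:**
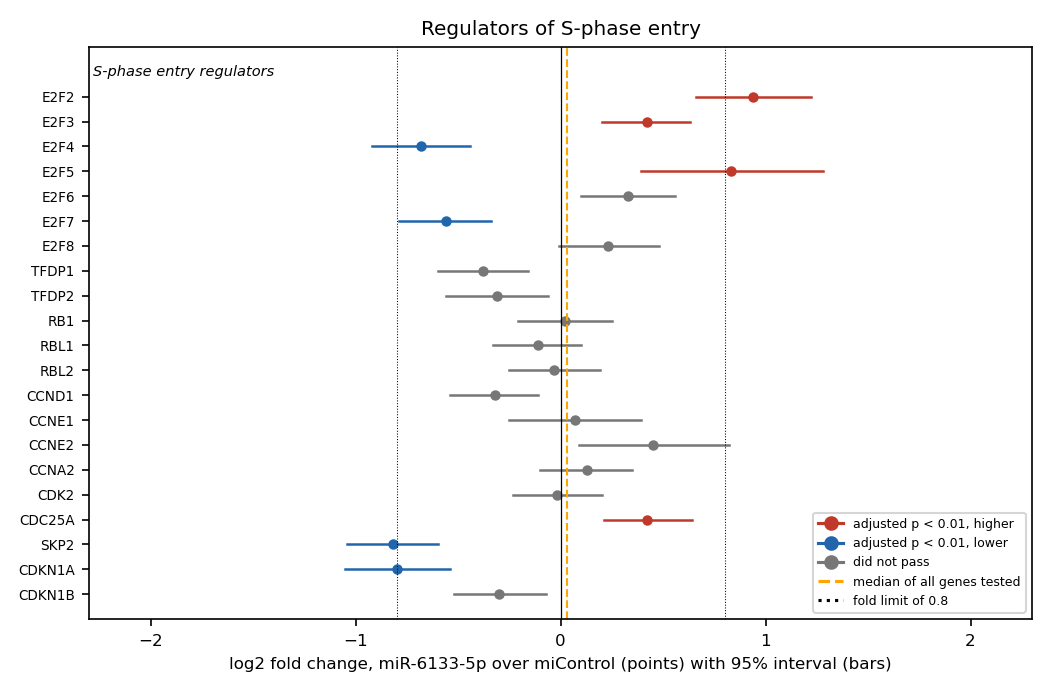
Log2 fold change (miR-6133-5p over miControl) of the 21 regulators of S phase entry, with bars for the 95% interval from edgeR. E2F2 and E2F5 lie highest and SKP2 and CDKN1A lowest, at -0.82 and -0.80.

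A second list held 39 further genes of replication and S phase, of which 5 passed as higher, 12.8%, and 1 as lower, 2.56%, with a median of 0.15. Of all genes tested 7.96% were higher and 10.9% lower, and of those at least as abundant as the least abundant member 11.9% and 17.4%. Fewer genes of this list passed in each direction with either miControl library left out, and more passed as lower without miR-6133-5p replicate 1. The numbers over all genes tested moved in the same directions. *RPA1*, the large subunit of the protein that coats single-stranded DNA at the fork, was at 115 and 116 CPM with miControl and at 226 and 216 CPM with miR-6133-5p and rose by 0.94 (SE 0.102). *RPA2*, the middle subunit, was at 44.5 and 48.1 against 90.6 and 76.3 CPM and rose by 0.85 (SE 0.113), and without miControl replicate 1 its adjusted p was 0.0127 (edgeR). *RPA3*, the small subunit, was at 14.2 and 14.4 against 16.8 and 12.9 CPM (0.06, interval from -0.24 to 0.35). As in GINS and RFC, some subunits of this complex passed and others did not, and differences between subunits were not tested. Named here because they are the remaining genes past the test, *DBF4*, *CHTF18* and *DUT* rose by 0.55, 0.54 and 0.50, and *SAMHD1*, which breaks down DNA building blocks, fell by 0.46. None of these 4 passed in every fit, as their adjusted p without miControl replicate 1 was 0.218, 0.0721, 0.0961 and 0.0718 (edgeR), and *SAMHD1* had 0.0354 with library totals alone. Without miControl replicate 2 it was 0.107 for *CHTF18*, 0.114 for *DUT* and 0.031 for *SAMHD1*, while *DUT* also had 0.0533 without miR-6133-5p replicate 1, and *CHTF18* 0.0302 without miR-6133-5p replicate 2 (edgeR).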

How the data were processed

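The 4 libraries were made from polyA+ RNA of LX-2 cells with a kit that marks strand and sequenced as read pairs. The authors mapped the reads to GRCh37 (STAR 2.5.3a, with featureCounts of Subread 1.6.4 among the tools in the submitters' processing notes) and deposited whole-number counts of reads per Ensembl gene, without normalization. The fraction of input pairs mapped uniquely, deposited by the authors in a mapping summary, was 0.965 to 0.968. The annotation, strand setting and filters behind the counts are not given in the sources used here.

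The members and all other gene lists were chosen by hand with earlier results of these data known, so that no list was tested as a set. Of 63677 genes in the table, 18252 passed filterByExpr. They were scaled by TMM and fitted with glmQLFit and glmQLFTest in edgeR 4.0.16 (R 4.3.3), with the group as the only term and Benjamini–Hochberg adjustment. Thresholds of 0.01 for the adjusted p and 0.8 for the log2 fold change are those of the study's methods. Standard errors were the fold change over the square root of F, and intervals (95%) came from the t distribution. CPM had no pseudocount, and CPM per kb used the canonical transcript of GENCODE lifted to GRCh37, which also gave positions and exon overlaps. The order of genes per kb depends on these lengths, whereas the change of a gene between groups does not. Every member could be named, with its level in each library where it passed or was the most or least changed of its role. Genes of other lists were named where they were called or were E2F, cyclin or CDK inhibitor genes. *CDC25A*, *RPA3*, *DBF4*, *CHTF18*, *DUT* and *SAMHD1* fall outside this rule and were named after their values were seen. The procedure was tested on counts simulated with the common dispersion. There edgeR passed 13.64% of the genes changed by 0.5 on the log2 scale, 100% of those changed by 1.5 and 0.03% of unchanged genes. Only 200 genes were changed there, whereas 1984 passed as lower and 1452 as higher in the data. The adjusted p depends on the share of changed genes, so 13.64% does not give the power for the members. A member that did not pass may still have changed by a small amount. An exact permutation test of 2 libraries against 2 has a smallest p of 0.333. DESeq2 1.42.0 was an alternative, and Python 3.11.15 with pandas 2.3.3 and matplotlib 3.10.9 served for tables and plots.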

Additional observations from a re-analysis of the deposited data

How the results depend on the processing

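The least abundant member lay at 9.32 CPM or more, where 3 counts were at most 0.0610 CPM, and the common biological coefficient of variation between libraries was 0.105. Across RLE scaling, DESeq2, no filter or a stricter one on low counts, and counts thinned to the smallest library, the counts of called and of passing members stayed within 1.5 times those reported. With library totals alone, 5 members were called higher, 20 passed as higher and the median was 0.40. Of all 18252 genes tested, 977 were then called higher, 15.5% passed as higher and 7.75% as lower, and the median was 0.19. Under that scaling *MCM4* was at 0.11, *MCM5* at 0.01, *CDC45* at 0.10, *GINS3* at 0.05 and *POLD3* at 0.03, and 14 genes of the second replication list passed as higher and 0 as lower. With glmTreat, 1 member was called higher, where 0.438% of all genes tested were. At an adjusted p of 0.05, 16 members passed as higher, where 14.1% of all genes tested did. Without the 8 members that share 10% or more of their exon bases, an alternative added after the data were seen, 1 was called higher and 6 passed as higher. Of all genes tested 2.9% were called higher and 7.96% passed as higher. No filter gave 8 higher genes in the second list, where 6.1% of the 33293 genes then tested were higher.

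Whether replicate numbers pair the samples is not known. The deviations of same-numbered libraries correlated at 0.049, but only 2 pairs exist, too few to decide it. With replicate number as a block, 3 members passed as lower and 14 as higher, 1 and 3 were called, and the second list had 2 lower and 8 higher genes. Of all 18252 genes tested, 14.0% then passed as lower and 11.6% as higher, and 1130 and 642 were called.

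With each library left out, which leaves 1 library in a group that is assumed to vary like the others, 1 member was called lower and 3 higher in every fit. Members that passed numbered 1 to 3 lower and 4 to 17 higher, and the median ran from 0.18 to 0.25. Passing genes of the second list numbered 0 to 4 lower and 1 to 7 higher, and regulators 1 to 7 lower and 1 to 4 higher. Over all genes tested, fewer genes passed in each direction without either miControl library, and more passed without either miR-6133-5p library. The ranges of passing genes in the 3 lists therefore cannot be read apart from this change over all genes. Signs changed for *GINS3* (-0.30 to 0.03), *POLE* (-0.04 to 0.39), *FEN1* (-0.08 to 0.09), *TK1* (-0.07 to 0.17), *CHAF1A* (-0.07 to 0.10), *CHAF1B* (-0.02 to 0.03), *RPA3* (-0.16 to 0.22) and *CCNE1* (-0.10 to 0.20). The cause of these shifts was not tested.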
